A study of Mus musculus with 20 samples.

Results

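Mouse blastocysts were compared with mouse oocytes to describe the net change of the transcriptome across preimplantation development. The members are the 4 arrays titled as blastocyst and the 4 titled as oocyte, 8 of the 20 arrays of the series, and every probe set on them other than controls, 22511 in all. A probe set is a group of probes that reports 1 transcript, and the array, Affymetrix MOE430B, is the companion array that carries mainly less characterised transcripts. The other 12 arrays, 4 each of 1-cell, 2-cell and 8-cell embryos, entered the estimate of the spread between arrays and the description of the stages between the ends. No strain, age, treatment or genotype is given for any group, the oocytes are called only oocytes, so their state of maturation is not known here, and in every group total RNA was amplified by 2 rounds of in vitro transcription. Nothing in the labels says that the 4 arrays of a stage came from separate pools, so the p-values speak only of how far these arrays scatter, and that scatter may be technical.

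A growing mouse oocyte stores messenger RNA and then stops transcribing. After fertilization the maternal store is degraded while the embryonic genome is switched on, and the blastocyst that forms has an outer epithelium, the trophectoderm, around an inner cell mass from which the primitive endoderm separates. A transcript can therefore be maternal only, embryonic only, or present at both ends because the embryo transcribes anew what the oocyte had stored.

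Values are linear intensities, which were compared as log2(intensity + 20). This scale understates the change of dim probe sets. The deposited table holds no detection calls, so low values cannot be separated from background, and levels of different probe sets were not set against each other. Changes are given as blastocyst minus oocyte with the standard error (SE), and means of intensity with the SD over 4 arrays. Adjusted p-values are Benjamini-Hochberg values from limma's moderated test over all 22511 probe sets, and rose, fell, higher and lower refer to an adjusted p under 0.05. A more demanding test (limma's treat) asked for a change of more than 2-fold. In material of this kind fewer cells of a type and less RNA per cell cannot be told apart.

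Arrays of 1 stage resembled each other more than they resembled the other stage. Pearson correlations ran from 0.90 to 0.93 among oocyte arrays, from 0.86 to 0.89 among blastocyst arrays and from 0.63 to 0.69 between the stages, each taken over probe sets, which do not count as replicates. Some quality measures differed between the ends. The log2 ratio of the 3' to the 5' control probe set of beta-actin was 2.41 ± 0.12 in oocytes and 1.09 ± 0.27 in blastocysts, whereas that of Gapdh was 2.05 ± 0.19 and 2.38 ± 0.47. The 18S ribosomal RNA control read 650.2 ± 197.4 in oocytes and 2592 ± 473 in blastocysts, and the bacterial controls averaged 10.95 ± 0.22 and 11.63 ± 0.40 on the log2 scale. Median intensity per array was 74.1 ± 5.1 and 87.3 ± 3.3. The part of these differences in the results below was not tested.

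The net change was broad and its largest members were losses. In blastocysts 3572 probe sets were higher (15.9% of those tested) and 2425 were lower (10.8%). Asked for more than 2-fold, 897 were higher (3.98%) and 886 were lower (3.94%). The median change over all probe sets was 0.12 with a median SE of 0.32. All arrays had been scaled to the same trimmed mean, so this is not a difference in total brightness. The median change was 0.001 after quantile normalization and -0.07 after median centring. The split between rises and falls rests on how arrays are scaled: 59.6% of calls were rises with the deposited scaling, 52.8% after quantile normalization and 45.8% when each array was centred on its median, and for changes over 2-fold the shares were 50.3%, 48.8% and 40.3%. All 4 blastocyst arrays lay above all 4 oocyte arrays for 2977 of the 3572 probe sets that were higher, and below them for 2125 of the 2425 that were lower.

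Large falls outnumbered large rises. A change of at least 3 log2 units with an adjusted p under 0.05 was found in 395 falls and 252 rises, of at least 5 units in 97 falls and 23 rises, and of at least 6 units in 51 falls and 9 rises. The largest fall was -8.46, and the largest rise, of a probe set without a gene symbol, was 7.52. Complete exchange was rare. Only 54 probe sets were above the table's 75th percentile of 188.8 on all oocyte arrays and below its 25th percentile of 26.5 on all blastocyst arrays, and 38 showed the reverse. Of the 3884 probe sets above the 75th percentile on all oocyte arrays, 804 (20.7%) were lower in blastocysts by over 2-fold. Of the 3850 above it on all blastocyst arrays, 658 (17.1%) were higher by over 2-fold, and 2363 probe sets were above it on all 8 arrays. Among the changes over 2-fold, 161 rises and 57 falls carry no gene symbol and cannot be named.

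**Figure D1:**
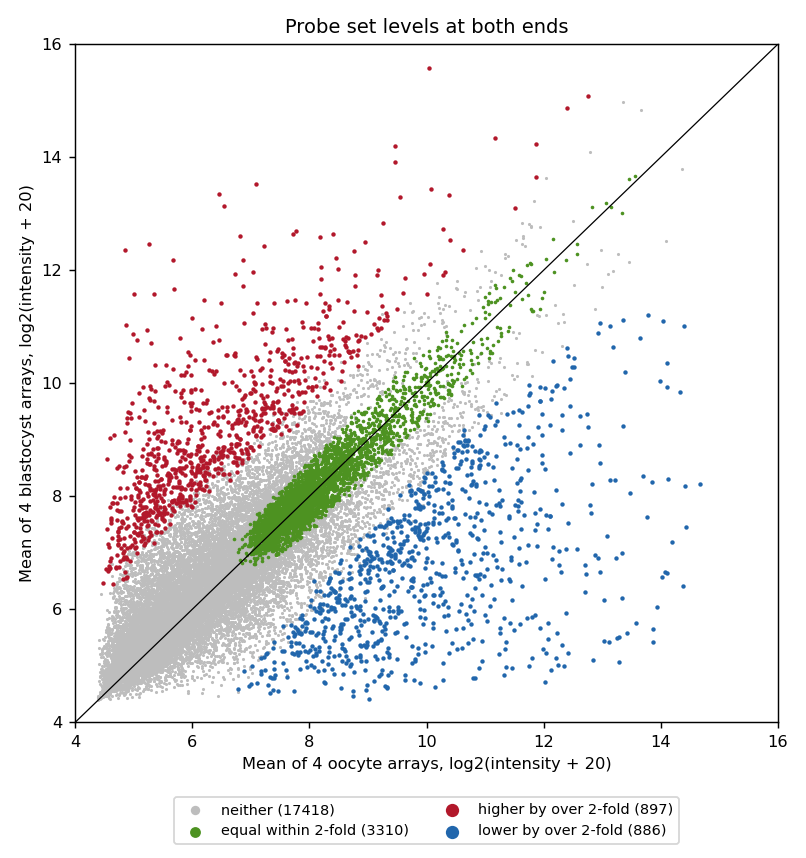
Mean log2(intensity + 20) of the 4 oocyte arrays (x axis) and the 4 blastocyst arrays (y axis) for each of 22511 probe sets, with the diagonal of equal levels. The 886 probe sets lower by over 2-fold reach farther from the diagonal than the 897 higher by over 2-fold, and the 3310 called equal within 2-fold lie along it.

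The largest losses were transcripts of the oocyte itself. The 14 falls and 14 rises described are the largest with groups that do not overlap, leaving out clone names and probe sets of the x_at type, whose probes can match several genes. Oog3, an oocyte gene read by an x_at probe set and named after its values were seen, also fell, with a change of -7.81. Oosp2, which encodes a protein secreted by oocytes, read 11877, 17688, 14557 and 16412 on the oocyte arrays and 16.1, 41.5, 21.6 and 15.9 on the blastocyst arrays. Its change was -8.46 (SE 0.35, adjusted p = 9.06e-15). Members of the NLRP family, cytoplasmic proteins that in the mouse include maternal-effect factors, followed. Nlrp4b read 9551, 11180, 9052 and 10347 in oocytes and 51.7, 5.2, 9.7 and 3.5 in blastocysts. Nlrp14 read 12917, 16674, 13341 and 17039 against 97.7, 9.1, 42.7 and 10.1. For all 3 genes the groups lay far apart. Nlrp4a fell by 7.76 from a mean of 9838 ± 1525 to 26.3 ± 12.5.

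Genes of the oocyte F-box cluster Fbxw, which encode adaptors of ubiquitin ligases with WD repeats, made up 4 of these 14 falls. Fbxw24 read 19584, 20280, 19460 and 26341 in oocytes and 182.9, 15.6, 51.7 and 79.3 in blastocysts, a change of -7.97 (SE 0.34, adjusted p = 1.18e-14). The changes of Fbxw21, Fbxw18 and Fbxw13 were -7.69, -7.46 and -7.36. Their oocyte means were 8867 ± 906, 17644 ± 1713 and 5272 ± 1014, and their blastocyst means were at most 84.4 ± 34.8.

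The other large falls were regulators of signalling, the cell cycle and RNA tails. Wee2, the oocyte kinase that holds CDK1 inactive in meiotic arrest, read 8797, 9118, 10924 and 11306 in oocytes and 22, 25.3, 56.5 and 9.8 in blastocysts, a change of -7.78 (SE 0.23, adjusted p = 5.19e-17). Rgs2, a brake on G protein signalling, fell by 7.88 from 15667 ± 1697 to 49.2 ± 25.6, although a second, dim Rgs2 probe set gave no call. Tent5c, a poly(A) polymerase outside the canonical family, fell by 7.58 from 8376 ± 1330 to 24.2 ± 9.9. Pabpn1l, the poly(A)-binding protein of oocytes, fell by 7.20 from 4518 ± 801 to 10.4 ± 1.8. Jag1, a Notch ligand, changed by -7.24 and Trim61, a tripartite motif gene, by -7.32, and in neither did the 2 groups of arrays overlap.

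The largest gains came from a more mixed set of genes. L1td1, an RNA-binding protein gene derived from a LINE-1 element and expressed in pluripotent cells, read 17.4, 11.8, 13.3 and 33.6 in oocytes and 5183, 5603, 11385 and 3049 in blastocysts. Its change was 7.21 (SE 0.35, adjusted p = 1.11e-13). Efhd2, a calcium-binding protein gene, read 57.1, 57.9, 62.3 and 102.3 against 12578, 16684, 7437 and 7631, a change of 6.89 (SE 0.28, adjusted p = 7.52e-15). Tmprss2, a transmembrane serine protease gene, read 91.0, 20.5, 99.3 and 120.4 against 10596, 7815, 11167 and 7126, a change of 6.6 (SE 0.33, adjusted p = 2.27e-13), whereas a dim second Tmprss2 probe set gave no call. In these 3 genes no oocyte array came near any blastocyst array. Csta1, which encodes a cystatin that inhibits cysteine proteases, rose by 6.21, from 22.7 ± 12.7 to 3065 ± 648.

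Enzymes, transporters and signalling genes filled the rest of the list. Ddah1, an enzyme that breaks down methylated arginines, read 16.1, 12.6, 5.9 and 13.3 in oocytes and 1982, 2487, 1672 and 1395 in blastocysts, a change of 5.87, and all 4 of its other probe sets were also higher. Rragd, a Rag GTPase that relays amino acid supply to mTORC1, rose by 5.79 to 6389 ± 1614, although its other probe set gave no call. Vnn1, a pantetheinase, rose by 5.71, and the zinc transporter Slc39a2 by 5.70. Grk6, a kinase of G protein-coupled receptors, rose by 5.53 from 11.1 ± 8.2 to 1410 ± 348. Xpot, the exporter of transfer RNA, rose by 5.31, the potassium channel Kcnk6 by 5.21, Niban1 by 5.15 and Tmem64 by 5.01. Each of these 14 genes and of the 14 falls was chosen for having groups that do not overlap, so the gaps are a description.

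**Figure D2:**
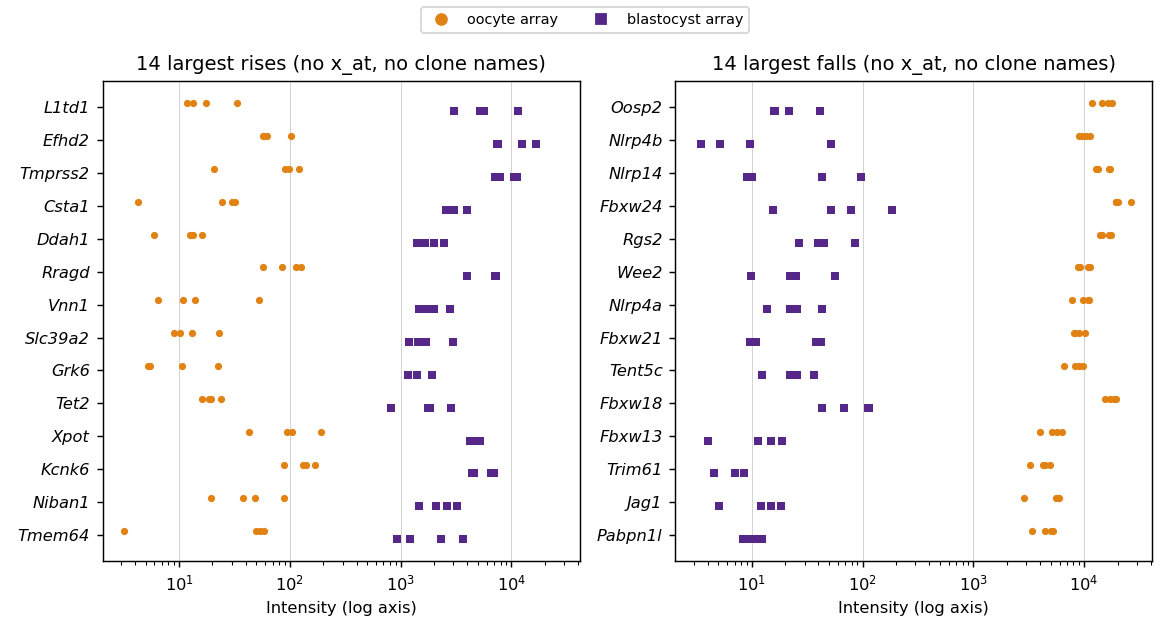
Intensity (log axis) on each of the 4 oocyte arrays (circles) and 4 blastocyst arrays (squares) for the 14 genes with the largest rises (left) and falls (right) among probe sets not of the x_at type and symbols that are not clone names. Oocyte values of the falling genes lie between 2890 for Jag1 and 26341 for Fbxw24, and blastocyst values of the rising genes between 819.0 for Tet2 and 16684 for Efhd2.

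The DNA upstream of the genes at these extremes differed in its content of CG dinucleotides, the sites of DNA methylation in mammals. The 250 bases before the start site are shown for the first 3 named falls and the first 3 named rises with a RefSeq entry, 5′ to 3′ on the strand of the gene, with every CG in capitals. Sequences are RefSeq's, on the mouse build GRCm38.p6. The falls come first, with Oosp2 at chr19:11660560-11660809 on the minus strand, Nlrp4b at chr7:10687543-10687792 on the plus strand and Fbxw24 at chr9:109626060-109626309 on the minus strand. The rises are L1td1 at chr4:98726504-98726753 on the plus strand, Efhd2 at chr4:141874921-141875170 on the minus strand and Tmprss2 at chr16:97611196-97611445 on the minus strand.
Oosp2: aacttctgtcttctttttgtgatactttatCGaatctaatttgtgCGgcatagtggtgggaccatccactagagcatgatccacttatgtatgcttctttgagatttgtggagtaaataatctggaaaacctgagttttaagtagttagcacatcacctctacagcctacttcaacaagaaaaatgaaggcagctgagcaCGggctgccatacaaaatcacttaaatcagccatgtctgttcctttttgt
Nlrp4b: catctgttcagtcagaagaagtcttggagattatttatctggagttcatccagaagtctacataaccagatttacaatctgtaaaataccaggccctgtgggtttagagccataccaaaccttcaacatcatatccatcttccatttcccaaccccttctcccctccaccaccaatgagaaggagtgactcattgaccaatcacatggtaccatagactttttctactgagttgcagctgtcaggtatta
Fbxw24: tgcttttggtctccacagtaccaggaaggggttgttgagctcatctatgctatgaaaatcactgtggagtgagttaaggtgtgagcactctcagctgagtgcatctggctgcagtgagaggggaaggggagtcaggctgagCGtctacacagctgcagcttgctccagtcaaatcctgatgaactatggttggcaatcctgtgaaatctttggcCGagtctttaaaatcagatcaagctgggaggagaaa
L1td1: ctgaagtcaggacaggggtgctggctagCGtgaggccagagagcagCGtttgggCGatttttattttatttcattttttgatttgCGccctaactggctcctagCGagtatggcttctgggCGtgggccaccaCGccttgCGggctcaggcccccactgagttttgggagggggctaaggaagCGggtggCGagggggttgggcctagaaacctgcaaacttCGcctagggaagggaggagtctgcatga
Efhd2: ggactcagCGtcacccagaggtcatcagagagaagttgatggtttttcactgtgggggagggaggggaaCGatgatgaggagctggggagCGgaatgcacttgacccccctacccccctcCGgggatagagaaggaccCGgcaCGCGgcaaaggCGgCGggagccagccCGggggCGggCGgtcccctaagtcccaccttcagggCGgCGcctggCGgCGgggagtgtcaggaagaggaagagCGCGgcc
Tmprss2: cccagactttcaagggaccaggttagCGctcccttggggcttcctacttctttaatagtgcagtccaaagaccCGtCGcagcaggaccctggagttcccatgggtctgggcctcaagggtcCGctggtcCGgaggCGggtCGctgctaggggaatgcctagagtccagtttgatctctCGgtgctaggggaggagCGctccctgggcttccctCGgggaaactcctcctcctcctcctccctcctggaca
These windows held 3, 0 and 2 CG dinucleotides in the falls and 11, 18 and 10 in the rises.

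Over all 7612 named genes with a RefSeq window, of 9607 named on the array, the median was 13 CG dinucleotides, and 30.2% of windows had a ratio of observed to expected CG below 0.4. Of the 100 largest falls 63% were below that ratio, with a median of 4, and of the 34 genes of the oocyte and maternal list with a window 26 were (76.5%), with a median of 2. The remaining 429 falls over 2-fold stood at 26.6%, close to the share of all genes. Among rises the share was 21% in the 100 largest and 12.7% in the other 323, with a median of 17 in each. Genes equal at both ends stood at 25.8% with a median of 14. Low CG content was thus found mainly in the extreme falls and not in falls in general. These shares are a description and were not tested. Many of the genes lie in clusters of related copies, so their windows are not independent.

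Short motifs were searched on both strands of the same windows. TATAAA was present in 8.00% of all windows, 12% of the 100 largest falls and 7% of the 100 largest rises. GGGCGG, which itself contains a CG, was present in 49.6%, 26% and 58%, and CCAAT in 35.2%, 43% and 37%. A match is a run of letters and not evidence of binding.

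**Figure D3:**
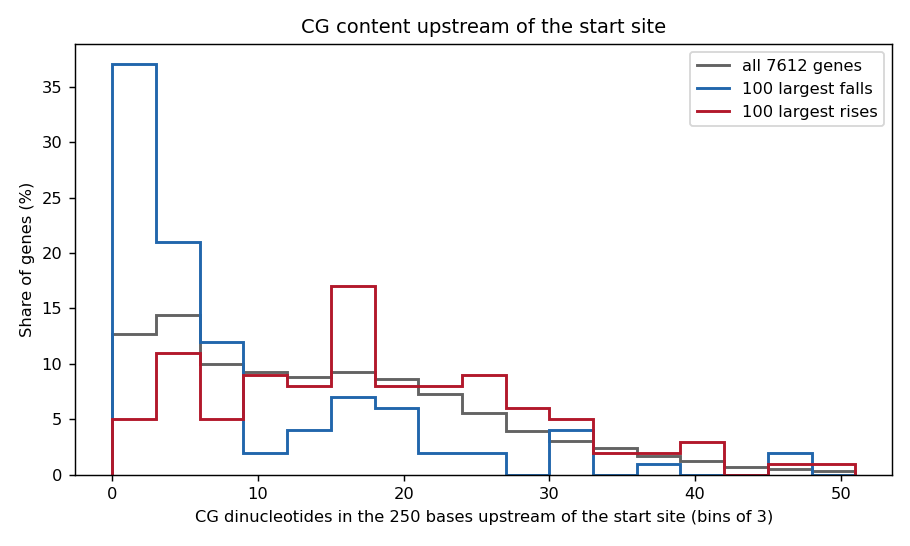
Share of genes (y axis, %) by the number of CG dinucleotides in the 250 bases upstream of the start site (x axis, bins of 3, with counts of 50 or more placed in the last bin), for all 7612 genes with a window, the 100 largest falls and the 100 largest rises. The falls pile up at the low end, with a median of 4 against 13 for all genes and 17 for the rises.

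Gene lists were described with 1 probe set per gene, the one with the highest mean over all arrays. Over all 9607 named genes, 17.5% were higher and 16.6% lower, with a median change of 0.07, and each list is read against these shares. Lists were not tested as sets.

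Of 40 oocyte and maternal genes 35 fell, 2 rose and 3 did not pass, with a median change of -6.19. The falls ran from -1.84 to -8.46, and 27 of them were of 5 log2 units or more. All 8 Nlrp genes, all 9 Fbxw genes and both Oosp and both Oog genes of the list fell. Zar1, a maternal-effect gene named for arrest of the zygote, read 13194 ± 845 and 308.5 ± 43.7, Padi6, a peptidylarginine deiminase of the oocyte's cytoplasmic lattices, 18815 ± 1532 and 140.0 ± 69.4, and the oocyte growth factor gene Bmp15 2793 ± 305 and 13.4 ± 15.8, changes of -5.34, -7.01 and -6.49. Fbxw16 read 14500, 19788, 19490 and 17828 in oocytes and 364.8, 297.5, 258.7 and 274.9 in blastocysts, with no overlap. The 3 that did not pass were Pld6, Rfpl4b and Sohlh1, named after their values were seen, with changes of -0.27, 0.10 and -0.43.

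The exceptions in the maternal list were Khdc3 and Obox6. Khdc3, a subunit of the subcortical maternal complex of the egg, read 2797, 1945, 2277 and 2201 in oocytes and 20616, 21452, 23347 and 17872 in blastocysts, a rise of 3.17 (SE 0.24, adjusted p = 2.58e-10). It had first dropped to a mean of 396.0 at the 2-cell stage. Obox6, a homeobox gene of the Obox cluster, read 28.1, 31.8, 47.1 and 33.6 against 269.7, 303.6, 289.9 and 298.7, a rise of 2.50. Its net change hides a mean of 17576 at the 8-cell stage. Obox5 of the same cluster, named after its values were seen, fell by 5.59.

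Genes of meiosis and the spindle were divided. Of 62 genes 15 fell (24.2%), 6 rose (9.68%) and the median was -0.07. The falls were led by Wee2 and by Cenps, a centromere protein gene, which went from 5086 ± 482 to 679.7 ± 68.3. Cenpi, another centromere protein gene, rose by 2.79 from 29.6 ± 12.3 to 323.2 ± 85.4, and Cdc25c, the phosphatase that activates CDK1, by 1.58 from 167.4 ± 32.6 to 558.8 ± 187.7.

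The machinery that makes and reads RNA and protein tended upward. In ribosome biogenesis 22 of 53 genes rose and 6 fell, with a median of 0.53. Tsr1, a factor of small-subunit maturation, read 596.2, 596.1, 660.1 and 530.6 in oocytes and 8256, 7422, 7688 and 6007 in blastocysts, a rise of 3.57 (SE 0.18, adjusted p = 2.80e-13). Wdr3, a WD-repeat protein of the small-subunit processome, rose by 2.83. Noc4l fell by 1.66, and Nol4, listed by its name although it is not a known ribosome factor, by 4.11. Of 27 mitochondrial ribosomal protein genes 9 rose and 1 fell, with a median of 0.45. Mrps10 rose by 3.90 and Mrpl27 by 2.75, and the fall of Mrpl19, by 0.70 (adjusted p = 0.0483), was lost in 10 of the 19 alternatives in which it was refitted.

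Cytosolic ribosomal protein genes are few on this array, and all 4 on the list were called higher, on uneven ground. Rps16 and Rpl7l1 were named after their values were seen. Rps16 rose by 0.54, from 3.45 ± 1.07 to 14.15 ± 2.76. All its values lay below the table's 25th percentile of 26.5 and cannot be separated from background. Rpl7l1, listed by its name, rose by 2.36. Rpl22 read 5198, 4743, 4910 and 6872 in oocytes and 32313, 31438, 37824 and 21077 in blastocysts, a rise of 2.48 (SE 0.21, adjusted p = 2.57e-09). For Rps3 the probe set with the higher mean rose by 4.74 from 16.9 ± 18.7 to 897.9 ± 149.8, whereas its other probe set fell, so its direction is not settled. Splicing factors rose in 28 of 62 cases (45.2%) and fell in 4, or in 2 without oocyte replicate 2, with a median of 0.60. Snrpb, a core protein of spliceosomal particles, read 501.0, 129.1, 372.3 and 403.8 against 8901, 4438, 6531 and 6476, a rise of 4.25. Hnrnpa0 rose by 3.76 from 344.2 ± 124.5 to 4788 ± 879. The falls included Ppil3 (-1.94) and Rbfox1 (-2.02), a neural splicing regulator.

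Protein turnover moved in both directions. Of 15 proteasome genes 4 rose and none fell in limma's test, with a median of 0.63, and at an unadjusted p under 0.05 the counts were 6 and 0. Psmb5, the catalytic subunit with chymotrypsin-like activity, read 1417, 1422, 1191 and 1238 in oocytes and 10605, 9906, 11639 and 9270 in blastocysts, a rise of 2.96 (SE 0.17, adjusted p = 4.17e-12), and Psma1 rose by 1.59. Ubiquitin adaptors and ligases went the other way, with 51 of 165 lower (30.9%), 26 higher (15.8%) and a median of -0.16. Their summed intensity was 205724 to 230361 on the oocyte arrays and 56128 to 59545 on the blastocyst arrays. The list holds the 9 Fbxw genes of the maternal list, which supply much of the oocyte sum, so the sums do not describe the list as a whole. Rnf125, a ubiquitin ligase, rose by 1.82 and Trim2 by 2.95.

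Translation factors and chaperones rose in 21 of 68 cases and fell in 6. Gigyf2, a translational repressor, read 5.1, 5.0, 4.2 and 4.6 in oocytes and 284.0, 201.6, 228.5 and 167.4 in blastocysts, after a mean of 2133 at the 8-cell stage. Eif1ad rose by 2.68. Eef2k, the kinase that inhibits elongation factor 2, fell by 4.09 from 4719 ± 366 to 277.9 ± 131.4, and Pfdn4, a prefoldin subunit, by 2.58 from 14048 ± 959 to 2402 ± 710. Factors of mRNA decay and the poly(A) tail were evenly divided, with 15 of 57 higher and 12 lower, although the falls were the larger: 8 exceeded 2-fold by treat against 5 rises. Dcp2, the decapping enzyme, rose by 2.34 and Ago2, the slicing Argonaute, by 2.93, against the falls of Tent5c and Pabpn1l given above.

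Chromatin and DNA methylation genes were divided, with 26 of 113 higher (23.01%), 24 lower (21.24%) and 29 equal within 2-fold. Over all named genes the shares were 17.5% and 16.6%, so a near-even split is not particular to this list. Tet1 and Tet2, which oxidise 5-methylcytosine, rose together. Tet1 read 34, 101.3, 65.5 and 27.6 in oocytes and 1797, 1554, 2278 and 2358 in blastocysts, a rise of 4.79 (SE 0.27, adjusted p = 2.16e-12). Tet2 read 24.1, 19.3, 16 and 18.5 against 1781, 1830, 819.0 and 2820, a rise of 5.41 (SE 0.38, adjusted p = 9.93e-11). Tet3 and the maintenance methyltransferase Dnmt1, the other Tet and Dnmt genes measured and named after their values were seen, changed by -1.37 (adjusted p = 0.0249) and -4.85 (adjusted p = 2.98e-10). Tet3 read 190.3 ± 108.7 and 68.7 ± 69.3, and Dnmt1, on probes that may match related sequences, 9009 ± 977 and 311.8 ± 124.8.

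Kdm1b, a histone H3 lysine demethylase needed for maternal imprints, read 2974, 1639, 2664 and 2820 in oocytes and 124.1, 116.8, 174.6 and 101.6 in blastocysts, a change of -4.08 (SE 0.21, adjusted p = 3.60e-13). Kat14, a subunit of an acetyltransferase complex, fell by 2.86 from 5596 ± 611 to 754.5 ± 89.6. Zinc finger genes named Zfp were divided likewise, with 54 of 232 higher and 51 lower. Zfp934 rose by 4.67 and Zfp637 by 3.78, and Zfp616 and Zfp957 changed by -6 and -5.01.

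Genes listed for the blastocyst's cell types were described. The lists were chosen with earlier results of these data known, so they cannot test the label. Cdx2, Nanog and Pou5f1, the usual defining genes, are not among the named probe sets, and the genes given here are other members of the lists. Of 65 trophectoderm and epithelial genes 15 rose (23.1%) and 6 fell (9.23%), with a median of 0.31. After median centring 15 rose and 11 fell. The rises were led by Tmprss2 and Csta1. The falls included Tfap2e, an AP-2 family transcription factor gene, which read 3720, 3907, 4471 and 4729 in oocytes and 12.4, 45.3, 9.0 and 11.7 in blastocysts, and the integrin gene Itga8, which fell by 2.41. Of 14 inner cell mass genes 7 rose and 3 fell, with a median of 0.69, led by L1td1 and Tet1. The falls were those of Klf17, Enox1 and Il6st, of which the last was named after its values were seen. Klf17 had its highest mean, 10417, at the 2-cell stage. Whether Klf17 and Enox1 belong to this lineage was not tested, so the split of the list depends on its choice of genes.

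Of 14 primitive endoderm genes 7 rose and 1 fell, with a median of 0.96. Gata6, the transcription factor that marks this lineage, rose by 2.28 from 78.5 ± 47.1 to 415.4 ± 108.0 (adjusted p = 2.86e-04), and Pdgfra, a receptor of the same lineage, by 2.80 from 29.9 ± 18 to 315.9 ± 63.5 (adjusted p = 2.56e-05). Sall1 rose by 2.64 and the endocytic receptor gene Lrp2 by 1.23. Ctsh, a cathepsin gene, fell by 4.15 from 3886 ± 204 to 200.5 ± 26. The summed intensity of the list was 4970 to 5176 on the oocyte arrays and 2791 to 3220 on the blastocyst arrays. Most of the oocyte sum came from Ctsh alone, which is read by an x_at probe set, so the sums do not describe the other genes. Without x_at and s_at probe sets the list had 0 falls. Genes listed for zygotic activation were divided evenly, with 6 of 17 higher and 6 lower. Zfp809, a repressor of retroviral elements, rose by 2.58, and Pramel29 and Pramel13, which belong to a multicopy family, changed by -6.31 and -3.69.

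The lists of oxidative phosphorylation and glycolysis stood near the shares over all named genes, 17.5% higher and 16.6% lower. In oxidative phosphorylation 5 of 31 genes rose (16.1%) and 5 fell (16.1%). Only 3 fell without oocyte replicate 2 or 4, and 8 rose after quantile normalization. Cox11, an assembly factor of cytochrome oxidase, rose by 2.96 from 242.9 ± 45.2 to 2023 ± 340, and Uqcrh by 1.29, whereas Coq10b and Sdhaf3 fell by 1.08 and 1.17. In glycolysis and glucose transport 4 of 21 rose (19.05%) and 3 fell (14.29%). Pgm3, which acts in amino sugar synthesis and not in glycolysis itself, rose by 4.49 (SE 0.20, adjusted p = 3.22e-14). It read 10.8, 8.7, 13.4 and 6.4 in oocytes and 547.6, 561.8, 816.8 and 699.7 in blastocysts. Pfkfb4, a regulator of phosphofructokinase, rose by 2.07, and Pdhx, a structural subunit of pyruvate dehydrogenase, fell by 3.24 from 4016 ± 403 to 411.1 ± 76.0. Slc2a13, a transporter of inositol, fell by 1.31 from 283.7 ± 54.96 to 103.4 ± 28.0. In the list for cholesterol synthesis 3 of 8 rose and 1 fell. The rises were Stard4 (1.28), Elovl6 (1.44) and Hmgcs1 (1.01), and the fall was Hsd17b7 (-1). Stard4 and Elovl6 are not enzymes of cholesterol synthesis itself. Hmgcs1, named after its values were seen, went from a mean of 10.6 to 43. All its oocyte values lay below the table's 25th percentile of 26.5. No direction is therefore given for the pathway.

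Of 156 solute carriers 32 rose and 19 fell. Slc15a2, a peptide transporter, read 200.7, 204.8, 190.2 and 197.7 in oocytes and 7004, 9058, 5860 and 5056 in blastocysts, a rise of 4.92 (SE 0.17, adjusted p = 5.91e-16). Its level at the 8-cell stage was still 375.1, so nearly all of this gain came with the blastocyst. Slc25a31, an ADP/ATP carrier of germ cells, fell by 5.94 from 2631 ± 393 to 24.4 ± 14.4, and Slc38a9, an amino acid sensor of the lysosome, by 3.78.

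Vesicle traffic rose in 41 of 136 genes (30.1%) and fell in 14 (10.3%). Snx27, a sorting nexin, rose by 3.66 and Rab11fip5 by 1.84, against falls of 2.76 in Rab3gap1 and 3.20 in Rab38. Of 38 nuclear transport genes 8 rose and 5 fell, but 6 and 7 after median centring and 9 and 3 after quantile normalization. The import receptor of the egg and early embryo, Kpna7, read 6040, 5571, 4891 and 5368 in oocytes and 10, 40.1, 16 and 10.7 in blastocysts, a change of -7.19, whereas Xpot and the nuclear pore gene Nup205 (1.94) rose. Nup214 fell by 2.00 on its brightest probe set and rose on another. Of 56 DNA replication and repair genes 14 rose and 9 fell, but 10 and 13 after median centring, among them the damage kinase gene Atm (3.66), Mcm8 (1.15), Rrm2b (-2.28) and Mcm9 (-1.54).

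The direction of several lists depended on scaling. After centring each array on its median, the medians of oxidative phosphorylation, solute carriers, Zfp genes, zygotic activation and sperm genes turned from 0.08, 0.10, 0.11, 0.10 and 0.11 to -0.11, -0.09, -0.08, -0.09 and -0.08, so no direction is given for these 5 lists; quantile normalization turned the same 5. That of DNA replication and repair was -0.07 as deposited and 0.01 after quantile normalization, and 0.04, 0.08 and 0.001 without oocyte replicate 1, blastocyst replicate 1 and blastocyst replicate 4. The median of meiosis and spindle genes was 0.007 without blastocyst replicate 2. Median centring also turned the counts of chromatin genes to 22 higher and 26 lower, of Zfp genes to 46 and 56, and of mRNA decay genes to 12 and 12. The medians of the maternal, ribosome biogenesis, splicing, proteasome and primitive endoderm lists kept their sign, at -6.38, 0.34, 0.41, 0.44 and 0.77 after median centring. In the maternal list 35 falls and 2 rises were called under every scaling and pseudocount run.

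Markers of other cells were described in the same way. Of 9 cumulus and granulosa genes 5, and of 35 sperm and spermatid genes 17, reached the table's median on at least 4 of the 8 arrays. Those 4 arrays can be of 1 stage, and the share over all genes was not worked out. The counts therefore do not show signal above background. None of the 9 cumulus and granulosa genes passed limma's test in either direction, also at an unadjusted p under 0.05. With the probe set of smallest p for each gene, 1 was higher. Their summed intensity was 1483 to 1869 on the oocyte arrays and 1181 to 1614 on the blastocyst arrays. Foxl2, a defining granulosa gene, read 760.0 ± 96.3 and 624.1 ± 148.9, Amhr2 196.4 ± 23.3 and 250.3 ± 24.9, and Ptx3 24.4 ± 16.8 and 18.7 ± 7.6. None of 4 blood and reproductive tract genes passed, likewise also unadjusted, and none reached the table's median on 4 arrays, although 1 was lower without blastocyst replicate 4, with sums of 92.5 to 196.7 and 90.3 to 148.0. Of 35 sperm and spermatid genes 4 rose and 5 fell, but only 2 rose without oocyte replicate 2 or without blastocyst replicate 2, 3 or 4. Among them were Spag9 (2.97), Spata2 (1.00), Spata21 (-4.37) and Tekt4 (-3.57), and the sums were 3756 to 4781 and 4324 to 4873.

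**Figure D4:**
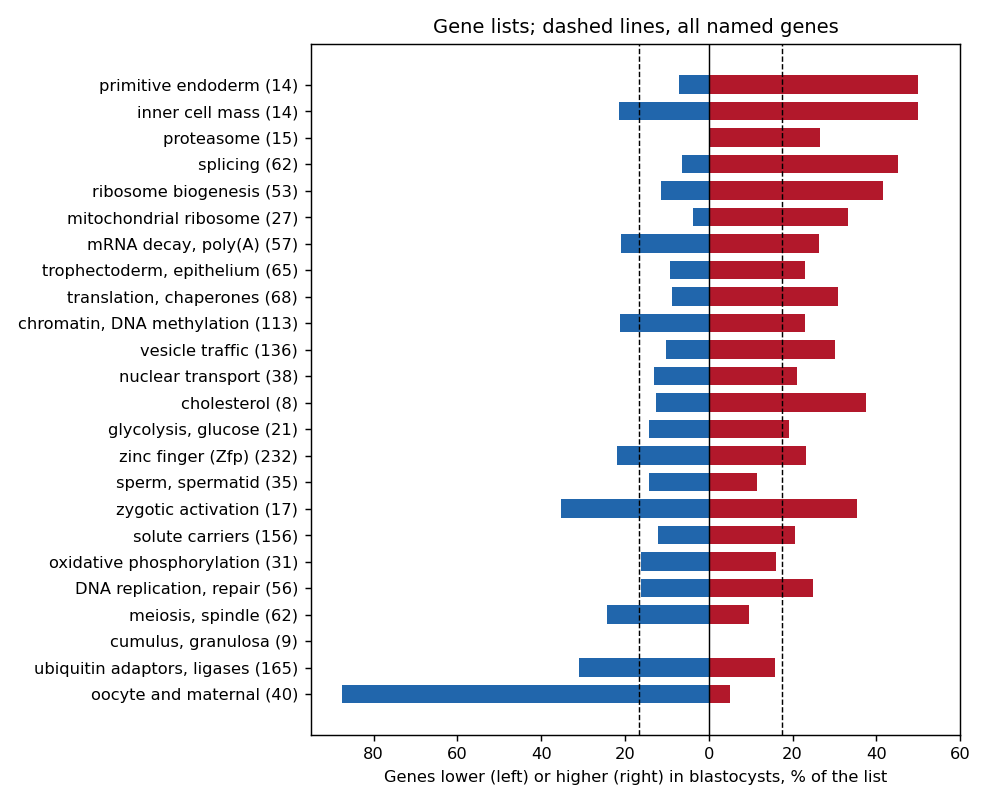
Share of the genes of each list that were higher (bars to the right) or lower (bars to the left) in blastocysts, in % of the list, with the number of genes in brackets and the list with the highest median change at the top; lists under 8 genes are left out. Dashed lines mark the shares over all 9607 named genes, 17.5% higher and 16.6% lower. The oocyte and maternal list reaches 87.5% lower, and the lists of splicing and ribosome biogenesis reach 45.2% and 41.5% higher.

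Members of the same gene family went in opposite directions in some cases. Of 1124 groups of symbols that share a stem, 43 held a member higher by over 2-fold and a member lower by over 2-fold. Groups with many members can hold both directions more easily, and no expected count was worked out. The Krüppel-like factor genes gave a clear example. Klf17 read 4424, 4294, 5207 and 5795 in oocytes and 152.4, 76.5, 72.9 and 74.6 in blastocysts, a change of -5.48 (SE 0.20, adjusted p = 9.09e-16). Klf6 read 24.3, 19.6, 1.9 and 15.8 against 663.0, 624.8, 612.2 and 718.9, a rise of 4.30 (SE 0.34, adjusted p = 7.11e-10). Among T-box genes Tbx4 fell by 4.87 and Tbx20 rose by 3.81. Csrnp2 fell by 3.82 and Csrnp1 rose by 4.36, Lemd1 fell by 3.64 and Lemd3 rose by 3.67. The other probe set of Csrnp1 and the 2 others of Lemd3 gave no call. The copine gene Cpne9 fell by 5.29 while Cpne8 rose by 3.52. The stems Zfp, Tmem and Ccdc are naming series and not families, with Tmem263 (4.61) and Tmem232 (-4.21), and Ccdc160 (3.76) and Ccdc69 (-6.32), as their extremes.

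Probe sets of the same gene seldom opposed each other. Of 148 genes with at least 2 probe sets changed by over 2-fold, 60 were higher on all of them, 87 lower on all and 1 divided, though 2 to 4 were divided under 8 of the alternatives. That gene, Spty2d1, a histone chaperone gene, read 96.6, 36.7, 40.2 and 34.4 in oocytes and 431.4, 296.8, 270.9 and 452.2 in blastocysts on one probe set. On another it read 1679, 1788, 2146 and 1804 against 156.9, 177.9, 208.3 and 213.0. The changes were 2.46 (SE 0.31) and -3.17 (SE 0.21), and what part of the transcript each probe set covers was not examined. By the adjusted p alone, 48 of the 118 named and changed genes had another probe set of the gene, with at least 1 called the same way in 29 and the opposite way in 3.

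A large set of probe sets differed by less than 2-fold between oocytes and blastocysts on these scaled arrays. Since a missed threshold does not show equality, equality itself was tested, as a change shown by a pair of one-sided tests to lie within 2-fold either way, among the 5887 probe sets that reached 82.6, the median of the whole table, on all 8 arrays. Of these 3310 passed (56.2%). In the same set 261 were higher and 322 lower by over 2-fold, and 1994 were placed in neither class. Of the 3310, 204 differed slightly but by an adjusted p under 0.05. The outcome depends on the margin. Within 1.5-fold none of the 5887 passed after adjustment, the smallest adjusted p being 0.143, although 1369 had an unadjusted p under 0.05.

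The 12 bright genes with the strongest evidence of equality had changes between -0.10 and 0.08 and the same adjusted p for equality, 0.000418. Tmem258, a subunit of the oligosaccharyltransferase, read 609.0, 531.5, 553.1 and 539.5 in oocytes and 630.1, 528.7, 620.4 and 561.9 in blastocysts. Prpf18, a splicing factor, read 566.8, 731.3, 611.8 and 560.0 against 600.0, 641.5, 765.3 and 529.0. Usp37, a deubiquitinase, read 577.6, 435.1, 565.7 and 479.2 against 515.4, 413.9, 565.3 and 471.0. The groups overlapped in each. The others were Dcun1d2, Plekha2, Plekhm3, Prr14l, Tmem201, Rab36, Zfp444, Cmtm5 and Tmem39a. Tmem201 had another probe set that was lower in blastocysts.

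Equal ends did not always mean a constant level. Over all probe sets the mean of 1-cell embryos lay above the mean of the ends by at least 2-fold with an adjusted p under 0.05 in 4.95% and below it in 5.97%. For 2-cell embryos these shares were 5.14% and 4.11%, and for 8-cell embryos 6.81% and 5.9%. Of the 3310 equal probe sets 393 (11.9%) were away from the ends at 1 or more stages, 154 of them above and 258 below, with 19 doing both, and 2917 were never away. By stage, 44 were above and 98 below at the 1-cell stage, 78 and 111 at the 2-cell stage, and 67 and 131 at the 8-cell stage.

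The deepest dip belonged to Gins2, a subunit of the replicative helicase. It averaged 2347 ± 221 in oocytes, 67.2 at the 8-cell stage and 2026 ± 265 in blastocysts, although its equality (adjusted p = 0.0451) was lost in 10 of the 18 alternatives in which it was refitted. Magi3, a scaffold of cell junctions, read 724.7, 478.4, 896.0 and 712.8 in oocytes and 816.4, 759.2, 874.9 and 522.7 in blastocysts, with a mean of 23.8 at the 8-cell stage. A pair of genes for complex I of the respiratory chain dipped earlier: Ndufc2, a subunit, to 257.6 at the 2-cell stage between ends of 3492 ± 214 and 4424 ± 593, and Ndufaf6, an assembly factor, to 44.6 at the 1-cell stage between 602.6 ± 216.3 and 710.5 ± 226.1. The equality of Ndufaf6 was lost in 9 of 19, and that of Ndufc2 under quantile normalization, with a change of 0.88.

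The highest peaks were at the 2-cell and 8-cell stages. Utp14b, a factor of ribosomal RNA processing, read 403.4, 456.5, 478.0 and 446.9 in oocytes and 368.2, 523.8, 417.6 and 647.0 in blastocysts, and 5671 on average at the 2-cell stage. Cggbp1, which binds CGG repeats, reached 7159 at the 2-cell stage between 1062 ± 346 and 792.3 ± 117.6. Larp4, a poly(A)-binding protein of the La family, reached 6878 at the 8-cell stage between 668.1 ± 76.4 and 990.1 ± 215.4, and was both equal within 2-fold and higher in blastocysts (0.54, adjusted p = 0.0175), a call lost in 3 of 19 alternatives. Gpd1l, a glycerol phosphate dehydrogenase relative, reached 2928 at the 8-cell stage between 349.4 ± 14 and 437.4 ± 109.0.

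The net changes over 2-fold were spread over the stages in different ways. For falls, the median share of the net log2 change reached was -0.30% in 1-cell embryos, 35% in 2-cell embryos and 93.9% in 8-cell embryos. For rises it was 0.18%, 31.1% and 82.5%. These shares use the same blastocyst and oocyte arrays as the rule and are a description. The stage at which a probe set first passed 50% of its net change was the 1-cell stage for 84 falls and 11 rises, the 2-cell stage for 233 falls and 289 rises, the 8-cell stage for 542 falls and 391 rises, and the blastocyst for 27 falls and 206 rises. Thus 22.97% of rises but 3.05% of falls did not pass the midpoint at any stage before the blastocyst.

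Named genes showed each pattern. Fbxw13 had dropped to 457.8 and Tent5c to 2425 at the 1-cell stage, and Pabpn1l stood at 23.2 at the 2-cell stage. Wee2 held 11735 at the 2-cell stage and 106.2 at the 8-cell stage. Trim61 averaged 8952 in 1-cell embryos against 4208 ± 698 in oocytes. Among rises, Pgm3 had reached 735.8 at the 2-cell stage, Rragd 4913 at the 8-cell stage, and Tmprss2 only 136.5 at the 8-cell stage. Kcnk6, Xpot and Vnn1 had means of 10556, 7200 and 4879 at the 8-cell stage, above those of 5629, 4657 and 2001 in blastocysts, so their net change understates their course.

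**Figure D5:**
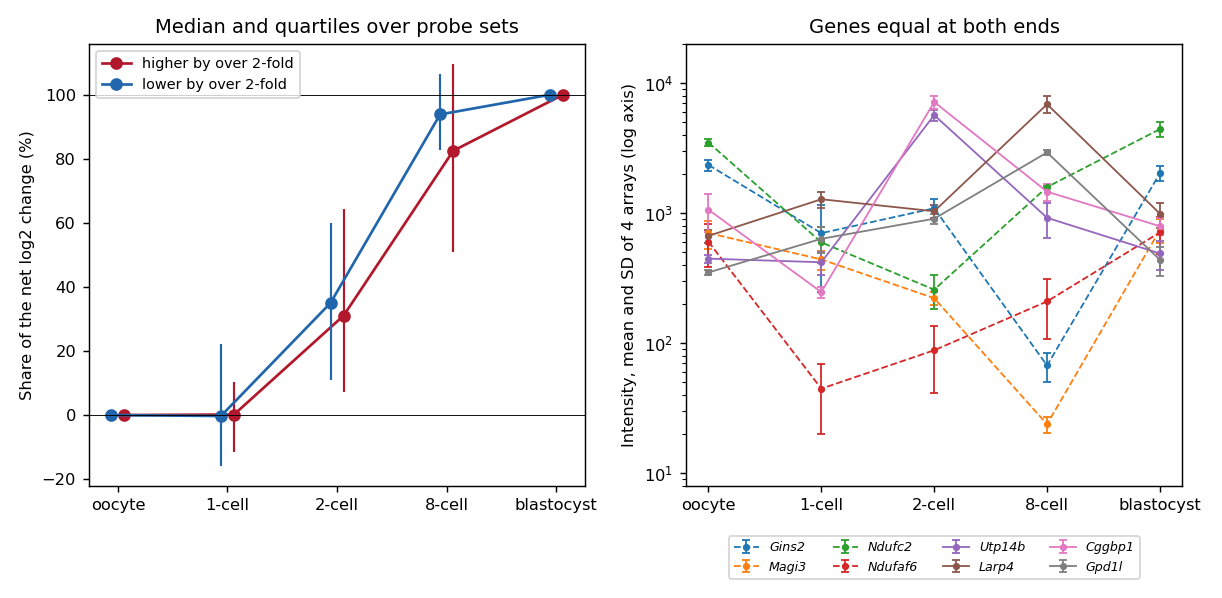
Left, share of the net log2 change reached at each stage (median, with vertical lines for the quartiles) for the 897 probe sets higher and the 886 lower in blastocysts by over 2-fold; falls stand at 93.9% and rises at 82.5% at the 8-cell stage. Right, intensity (log axis, mean and SD of 4 arrays) of 8 genes equal at both ends, with dashed lines for the 4 deepest dips and solid lines for the 4 highest peaks between.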

How the data were processed

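The data are 20 Affymetrix MOE430B arrays, 4 per stage. The deposited values are linear intensities, 1 per probe set. Their mean after trimming 2% at each end lay between 150.02 and 150.04 on all 20 arrays, so the deposited table was scaled; for the scaling and summarization, a method was not given in these sources. All samples had 2 rounds of amplification, per the labels. Of 22575 probe sets 64 are controls and were left out; of the others, 14661 carry 1 gene symbol, 245 several and 7605 none, and 14486 of the symbols' probe sets were found in RefSeq's gene table. Probe sets of the s_at or x_at type can match related sequences.

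Values were taken as log2(intensity + 20) and fitted with limma 3.58.1 in R 4.3.3 over all 20 arrays with 1 term per stage and 15 residual degrees of freedom, with an intensity trend and Benjamini-Hochberg adjustment. Changes over 2-fold used treat, and equality a pair of one-sided tests. An exact permutation test of 4 against 4 arrays cannot go below 0.0286. The fit was tested on simulated data. Away from the ends means an adjusted p under 0.05 and a change of at least 1 log2 unit against the mean of oocytes and blastocysts.

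The members and lists were chosen with earlier results of these data known. Genes were named by rule: the 14 largest rises and falls with groups apart (clone names and x_at probe sets left out), for each list up to 2 rises and 2 falls with the smallest p, the 12 smallest p for equality, the 4 deepest dips and 4 highest peaks, genes with opposed probe sets, and the 8 families with the largest opposed changes; lineage and other-cell markers were named from fixed lists. Kinases of ribosomal protein S6, caught by their symbols, were removed from the ribosomal list after the data were seen. Promoter windows are the 250 bases upstream in RefSeq's table. Alternatives varied the pseudocount (5, 80), filter, scaling, trend, weights, probe set types, arrays in the fit and replicate block.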

Additional observations from a re-analysis of the deposited data

Results flagged for a closer look

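Among the genes named above, 278 groups of 4 arrays (the oocytes or the blastocysts of 1 probe set) were examined for an array whose gap to its nearest neighbour took most of the group's range, by Dixon's criterion. It was met in 23 of them (8.27%), whereas chance gives about 1 in 20. Blastocyst replicates 1 to 4 accounted for 5, 2, 5 and 1 of these, and oocyte replicates 1 to 4 for 2, 1, 3 and 4. No cause was tested.

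Among genes that rose, oocyte replicate 4 read 102.3 for Efhd2 (nearest other array 62.3), 51.7 for Atm (16.7) and, at the low end, 3.2 for Tmem64 (49.6). Oocyte replicate 3 read 52.3 for Vnn1 (13.9) and 802.7 for Rnf125 (678.3). Blastocyst replicate 4 was low for Rragd at 3968.7 (7153.8), and blastocyst replicate 1 high for Rnf125 at 3511.3 (2281.6). Blastocyst replicate 3 was low for Cox11 at 1516.2 (2157.1) and for Hnrnpa0 at 3477.1 (5085.6). None of these values reached the other stage.

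Among genes that fell, blastocyst replicate 1 retained more of Nlrp4b at 51.7 (9.7), of Klf17 at 152.4 (76.5) and of Noc4l at 2492.5 (1493.5). Blastocyst replicate 2 did so for Tfap2e at 45.3 (12.4) and Zfp616 at 35.8 (2.2), and blastocyst replicate 3 for Tmem232 at 67.6 (10) and Csrnp2 at 222.8 (189.0). In oocytes, replicate 4 was high for Fbxw24 at 26341.4 (20280.3), replicate 2 low for Jag1 at 2889.9 (5587.0) and replicate 1 low for Slc38a9 at 2159.0 (2859.7). Oocyte replicate 1 read 96.6 on the Spty2d1 probe set that rose (40.2).

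Among genes equal at both ends, oocyte replicate 3 read 924.6 for Ndufaf6 (526.4), blastocyst replicate 3 read 1077.9 for Plekhm3 (849.3) and blastocyst replicate 1 read 600.5 for Gpd1l (393.3).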

How the results depend on the processing

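A pseudocount of 80 in place of 20 lowered the probe sets higher by over 2-fold to 591, a filter at the table's 75th percentile lowered those higher at any size to 2362, and equality gave 1331 probe sets when all 8 arrays had to reach that percentile (fewer were tested) and 0 within 1.5-fold. Every other alternative kept the counts of higher, lower, equal and away probe sets within 1.5 times. Leaving out each array in turn gave 3046 to 3392 higher and 2178 to 2354 lower, 775 to 944 higher and 804 to 879 lower by over 2-fold, 3055 to 3137 equal, and 334 to 363 equal but away between the ends. With the replicate block these counts were 3528, 2401, 889, 883, 3305 and 393. Same-numbered oocyte and blastocyst arrays did not deviate together, with correlations of 0.004, 0.05, -0.02 and 0.02. Pairs of unlike number ran from -0.04 to 0.04. This check found no sign that the numbers pair the arrays, but it cannot exclude pairing, and the labels do not settle it.

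Of the refits of named genes 2578 kept their direction and side of the threshold, 33 lost the call and none reversed. The losses were in Mrpl19, Gins2, Ndufaf6, Larp4 and Ndufc2 alone. Of the refitted list counts 1009 stayed close and 31 moved. A filter at the 75th percentile gave 35 rises of Zfp genes, 9 of DNA replication and 5 of nuclear transport. Genes with probe sets divided over 2-fold numbered 4 with a pseudocount of 5, 3 with median centring or the 75th percentile filter, and 2 with the median filter, with only the 8 arrays and without oocyte replicate 1 or 4 or blastocyst replicate 1. Families with members in both directions numbered 33 to 47 with the over 2-fold test, and 183 with the adjusted p alone. Stages between the ends could not be recomputed from only the oocyte and blastocyst arrays, and the list of blood genes had no gene left under the filters. The number of arrays limits precision, and dim probe sets have no order.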
